A study of Mus musculus with 19 samples.

Results

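The epithelial-mesenchymal transition (EMT) factors of the Snail, Twist, Zeb and Prrx families were followed through a study that turned mouse fibroblasts into prostate-like tissue. The members were 8 listed genes, Snai1, Snai2, Twist1, Twist2, Zeb1, Zeb2, Prrx1 and Prrx2, among the 23284 genes of each deposited table, and all 8 were found in both tables. They were compared between mouse embryonic fibroblasts (MEF, 6 samples), prostate (6 samples) and renal grafts of reprogrammed cells (7 samples, of which 5 were in the first table and 2, FS022 and FS023, in a second table that was normalized separately). The MEF came from the limbs of pooled littermate E13.5 embryos, heterozygous for Nkx3-1tm2(LacZ)Mms on a C57BL/6 background, and had been sorted to remove blood, endothelial and EpCAM-positive cells. The prostate samples came from C57BL/6 mice of 6 weeks for which the labels give no engineered allele. The grafts began as MEF that had received retroviruses for human OCT4, SOX2, KLF4 and c-MYC, a treatment that yields induced epithelial (iEpt) cells, and the methods describe further lentiviruses for prostate factors, mouse Nkx3.1 and mouse Foxa1 among them. These cells were recombined with rat urogenital mesenchyme and grown for 6 weeks under the kidney capsule of male nude mice, so that a graft held descendants of the MEF, rat stroma and tissue of the mouse host. The labels do not say which grafts received the prostate factors, and all 7 are called grafts here. By the study's own sample list the grafts of the first table had received them, and FS022 and FS023 are not on that list, so a difference in these factors and a difference between the tables cannot be told apart. The grafts and prostate were whole tissues, so fewer cells of a type and less RNA per cell cannot be told apart in any value below, and reads of rat stroma that map to a mouse gene were not separated.

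All 8 factors hold the mesenchymal state by binding DNA. Snai1 and Snai2 are zinc finger repressors and Zeb1 and Zeb2 are zinc finger homeodomain repressors, and both kinds bind E-boxes in the promoters of epithelial junction genes such as Cdh1. Twist1 and Twist2 are basic helix-loop-helix factors that bind E-boxes as dimers with E proteins, and Prrx1 and Prrx2 are paired-related homeobox factors of limb and connective tissue mesenchyme. In adult organs these genes are known mainly from fibroblasts, smooth muscle, endothelium and some leukocytes rather than from epithelium, and epithelial regulators such as Ovol2, Grhl2 and Elf5 are known to oppose them.

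The letters that the Snail and Zeb repressors recognise, CACCTG or its reverse complement CAGGTG, were searched on both strands in the promoter sequences of RefSeq (GRCm38.p6), each of which runs from 250 bases before to 50 bases after a start. Sequences were at hand for 6 of the 8 members, and 1 of these, Snai1, held the motif; Snai1 protein is known to repress its own gene. Of all 32851 promoters, 20.2% held it, and of all 27025 genes, 22.6% held it in at least 1 promoter. Among 9 epithelial regulator genes with a sequence, 4 held it. Of 20 epithelial target genes listed, 13 had a sequence, and Cdh1 was not among them. Of the 20 promoters of these 13 genes, 17 held the motif, with at least 1 such promoter for each gene. These target genes had been listed because they are known to be repressed by the factors, so the high share is not independent of the choice, and several of the promoters overlap one another. The promoter of Snai1 is shown as the only one of a member with the motif, that of Epcam, an epithelial adhesion molecule, because its values are used below, and 1 of the 2 listed for Crb3, an apical polarity gene, because it held 4 copies. The motif is in capitals, a match is a description of the letters only, and the sequences run 5′ to 3′ on the strand of the gene.
Snai1, chr2:167537945-167538244, + strand: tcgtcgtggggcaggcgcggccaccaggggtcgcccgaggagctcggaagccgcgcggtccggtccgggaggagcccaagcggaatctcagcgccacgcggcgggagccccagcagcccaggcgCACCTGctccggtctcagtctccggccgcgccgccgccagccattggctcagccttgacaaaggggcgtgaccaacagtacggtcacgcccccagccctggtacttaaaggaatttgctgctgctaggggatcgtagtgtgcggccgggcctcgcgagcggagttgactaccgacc
Epcam, chr17:87635729-87636028, + strand: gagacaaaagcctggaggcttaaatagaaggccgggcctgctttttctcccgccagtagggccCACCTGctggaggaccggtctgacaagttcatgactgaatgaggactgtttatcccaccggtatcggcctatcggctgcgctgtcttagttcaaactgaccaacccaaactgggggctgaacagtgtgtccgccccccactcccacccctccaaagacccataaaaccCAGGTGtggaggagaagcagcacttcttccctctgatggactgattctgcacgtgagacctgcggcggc
Crb3, chr17:57061951-57062250, + strand: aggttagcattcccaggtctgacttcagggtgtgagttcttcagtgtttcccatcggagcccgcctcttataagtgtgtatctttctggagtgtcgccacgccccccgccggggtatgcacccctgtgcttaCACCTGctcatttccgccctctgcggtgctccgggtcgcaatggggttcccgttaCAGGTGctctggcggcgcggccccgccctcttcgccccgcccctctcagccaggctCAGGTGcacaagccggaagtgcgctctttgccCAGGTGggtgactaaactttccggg

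The motif of Snai1 began at position -126 from the start. The motifs of Epcam began at -187 and -19, and those of Crb3 at -118, -63, -7 and 26.

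Reads assigned to genes came to between 20418164 and 26152345 in MEF, 17371427 and 23446529 in the 5 grafts of the first table and 16767292 and 22512393 in prostate, and to 6629665 in FS022 and 9662059 in FS023. The deposited values were on a log2 scale on which a gene with 3 reads reached 1.68 to 2.34 in the first table and 2.70 to 3.12 in the second, and all 152 values of the 8 members in the 19 samples lay above it. The labels were checked against marker lists of 8 genes each. Summed fibroblast markers reached 501600 to 665593 normalized reads in MEF and 14835 to 86785 in the grafts of the first table. The list was not uniform. Against MEF, 6 of its 8 genes were called lower in grafts, and 4 lower and 1 higher in prostate. Dcn went the other way, from a mean of 9.65 in MEF to 11.33 in grafts and 13.53 in prostate. Summed secretory markers of prostate reached at least 1490620 in prostate and at most 13662 elsewhere. Within MEF the secretory sum was 1338 to 4204 in FS015 to FS018 and 157 and 177 in FS020 and FS019. The 6 MEF samples fell into 3 close pairs (FS015 with FS020, FS016 with FS019, FS017 with FS018) whose read counts differed far less than those of the other 12 pairings, yet more than by sampling noise, and the labels do not say whether samples came from separate cultures, so p-values measure the spread between these samples. Summed leukocyte markers were also uneven in MEF, at 6224 and 5823 normalized reads in FS015 and FS020 and 137 to 190 in the other 4.

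All 8 factors were far lower in prostate than in MEF. They stood at 3.28% (Snai1) to 25.4% (Zeb1) of the MEF level (2 to the power of the log2 difference). No prostate value of any member reached the range of the MEF. In limma fits over all 14560 genes tested, with Benjamini-Hochberg adjustment and a call at an adjusted p under 0.05 and a log2 fold change of at least 1 in size, 8 of 8 members were called lower in prostate, where 20.5% of all genes tested were called lower. The median log2 fold change of the members was -3.65, beside 0.17 over all genes tested. All 8 would have passed the filter on low values (a linear mean of at least 10) on their prostate values alone.

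All 8 factors were also lower in the grafts of the first table than in MEF, at 4.03% (Prrx1) to 41.3% (Zeb2) of the MEF level. Again the groups did not overlap for any of the 8. The share of all genes without such overlap was not computed, in this or the other comparisons, so these counts have no background beside them. The limma fit over 16121 genes called 8 of 8 members lower in grafts, where 12.0% of all genes were called lower. The median log2 fold change was -3.52, beside 0.26 over all genes. Both comparisons use the same 6 MEF samples, so they are not independent of each other. Quantile normalization deepened the drop in grafts for 5 members, to -5.01 for Snai1, -4.47 for Snai2, -4.41 for Twist1, -3.73 for Twist2 and -5.64 for Prrx2, and gave -2.81 for Zeb1, -1.18 for Zeb2 and -4.45 for Prrx1, close to their values as deposited. Without the grafts FS007 and FS008 the log2 fold change stood at -2.59 for Twist1, -3.43 for Twist2, -4.002 for Prrx1 and -3.67 for Prrx2, with all 8 members still called.

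**Figure D1:**
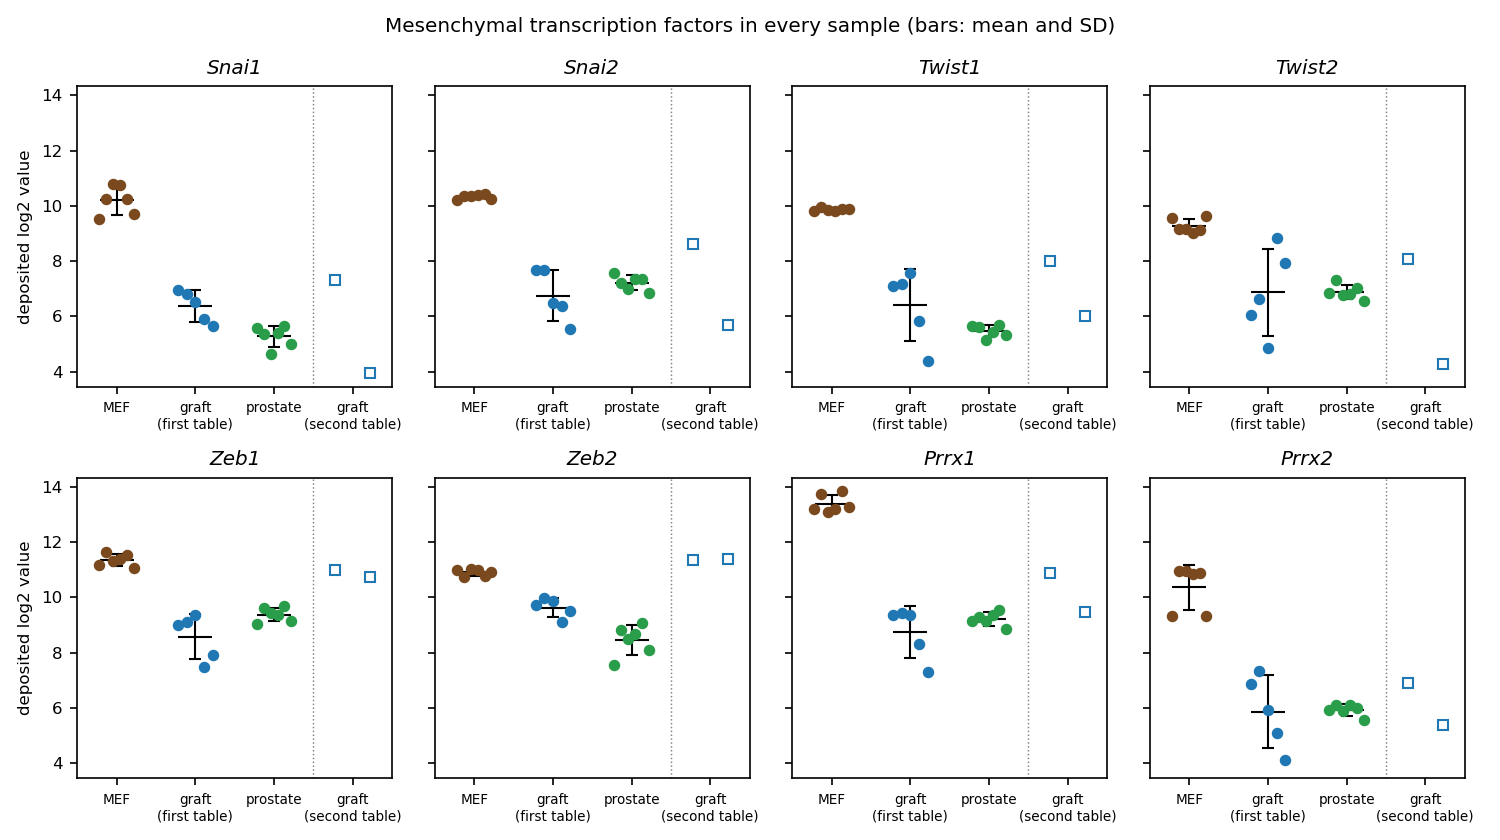
Deposited log2 value of each factor in every sample, 1 panel a gene, with MEF in brown, grafts in blue and prostate in green, and with the mean and SD of the groups of the first table in black. Open squares right of the dotted line are the grafts FS022 and FS023 of the second table, normalized separately. For each gene every MEF point lies above every graft and prostate point of the first table, and Zeb2 in the open squares lies at or above 11.36, higher than every MEF point.

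Snai1 showed the largest difference of the 8 members between prostate and MEF. This gene, which encodes the founding repressor of Cdh1, had log2 values in MEF from 9.52 to 10.78 with a median of 10.23. In the 5 grafts, taken here and below in the order FS002, FS003, FS005, FS007, FS008, it stood at 6.97, 6.82, 6.53, 5.88 and 5.65. In prostate it ran from 4.64 through a median of 5.38 to 5.66. The MEF values thus stood apart from both tissues, while the lowest graft value fell just inside the prostate range. The log2 fold change of Snai1 was -4.93 ± 0.25 (SE) in prostate against MEF (limma, adjusted p = 9.15e-10), and -3.83 ± 0.31 in grafts against MEF (limma, adjusted p = 1.62e-06). By estimated reads, Snai1 in prostate rested on 25.2 to 47.0 reads a sample, the thinnest basis of any member there.

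Snai2, also called Slug, was tight in MEF, at 10.22 to 10.44 with a median of 10.35. It fell to 7.69, 7.67, 6.48, 6.36 and 5.52 in the 5 grafts. In prostate it lay between 6.83 and 7.56 with a median of 7.28. The prostate values sat inside the graft range, below the 2 highest grafts and above the 3 lowest. Its log2 fold change was -3.12 ± 0.11 in prostate (limma, adjusted p = 6.53e-11) and -3.59 ± 0.34 in grafts (limma, adjusted p = 5.76e-06), each against MEF.

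The Twist genes parted from each other in the grafts. Twist1, which is known for limb and cranial mesenchyme, varied least of all in MEF, from 9.80 to 9.96 with a median of 9.86. In the grafts it stood at 7.08, 7.16, 7.58, 5.84 and 4.38. In prostate it ran from 5.14 to 5.70 with a median of 5.52. The grafts FS002, FS003, FS005 and FS007 were thus above every prostate sample and FS008 was below them all. Twist1 was lower by 4.39 on the log2 scale in prostate than in MEF (SE 0.10, limma, adjusted p = 5.64e-12). Its log2 fold change in grafts was -3.45 (SE 0.48, limma, adjusted p = 8.41e-05).

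Twist2, known for dermal and other connective tissue fibroblasts, came closest to the MEF range in a single graft of the first table. It ran from 9.003 to 9.63 in MEF with a median of 9.17. In the grafts it stood at 6.05, 6.64, 4.85, 8.85 and 7.91, the widest spread of any member (SD 1.57, n = 5). In prostate it kept between 6.54 and 7.30 with a median of 6.84. FS007, at 74.4% of the MEF mean, came close to the lowest MEF value, and FS005 was at 4.65% of it. Its log2 fold change was -2.39 ± 0.14 in prostate (limma, adjusted p = 5.12e-09) and -2.42 ± 0.58 in grafts (limma, adjusted p = 0.00352), and without the MEF samples FS015 to FS018 the graft call was lost, with -2.52 and an adjusted p of 0.0913.

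By mean, a Zeb gene stood closest to its MEF level in each tissue, Zeb1 in prostate and Zeb2 in grafts. Zeb1, a repressor of Cdh1 and of the miR-200 family, ran from 11.08 to 11.64 in MEF with a median of 11.35. In the grafts it stood at 8.99, 9.11, 9.38, 7.48 and 7.93. In prostate it ran from 9.05 to 9.68 with a median of 9.40. Only the grafts FS003 and FS005 fell inside the prostate range, and the other 3 were below it. Zeb1 was lower by 1.98 in prostate than in MEF (SE 0.12, limma, adjusted p = 7.64e-09), the smallest difference of the 8 there. Its log2 fold change in grafts was -2.78 (SE 0.31, limma, adjusted p = 1.9e-05).

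Zeb2, which is also known from macrophages, other leukocytes and the nervous system, ran from 10.74 to 11.03 in MEF with a median of 10.95. In the grafts it stood at 9.72, 9.96, 9.88, 9.09 and 9.50. In prostate it ran from 7.54 to 9.06 with a median of 8.57. These 3 groups did not overlap, with MEF highest and prostate lowest. Its log2 fold change was -2.46 ± 0.21 in prostate (limma, adjusted p = 1.49e-07) and -1.28 ± 0.15 in grafts (limma, adjusted p = 2.1e-05), the smallest drop of the 8 in grafts. In the annotation of mm9 its exons overlap those of the antisense lincRNA Gm13476 and of a miRNA, and as the library kit does not mark strand, their reads cannot be told apart from those of Zeb2.

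Both Prrx genes were far lower in both tissues than in MEF. Prrx1, a factor of limb bud and fibroblast identity, was the highest member in MEF on the deposited scale, at 13.09 to 13.85 with a median of 13.25. In the grafts it stood at 9.37, 9.43, 9.37, 8.32 and 7.30. In prostate it ran from 8.84 to 9.55 with a median of 9.21. The first 3 grafts lay inside the prostate range and the last 2 below it. Prrx1 was lower by 4.17 in prostate than in MEF (SE 0.15, limma, adjusted p = 6.06e-11). Its log2 fold change in grafts was -4.63 (SE 0.37, limma, adjusted p = 1.46e-06), the largest drop of the 8 in grafts.

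Prrx2, its close relative, ran from 9.32 to 10.95 in MEF with a median of 10.85. The spread came from the pair FS015 and FS020, both near 9.32, while the other 4 lay at 10.83 to 10.95. In the grafts it stood at 6.87, 7.34, 5.90, 5.07 and 4.09. In prostate it ran from 5.54 to 6.12 with a median of 5.97. Prrx2 was lower by 4.44 in prostate than in MEF (SE 0.31, limma, adjusted p = 2.29e-08). Its log2 fold change in grafts was -4.52 (SE 0.58, limma, adjusted p = 4.97e-05). The pair that was low for Prrx2 was also the lowest of the 3 for Snai1 (mean 9.60), Snai2 (10.24) and Zeb1 (11.14) and the highest for Twist2 (9.60), and it was the pair with the high leukocyte sums; what part these played was not tested.

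**Figure D2:**
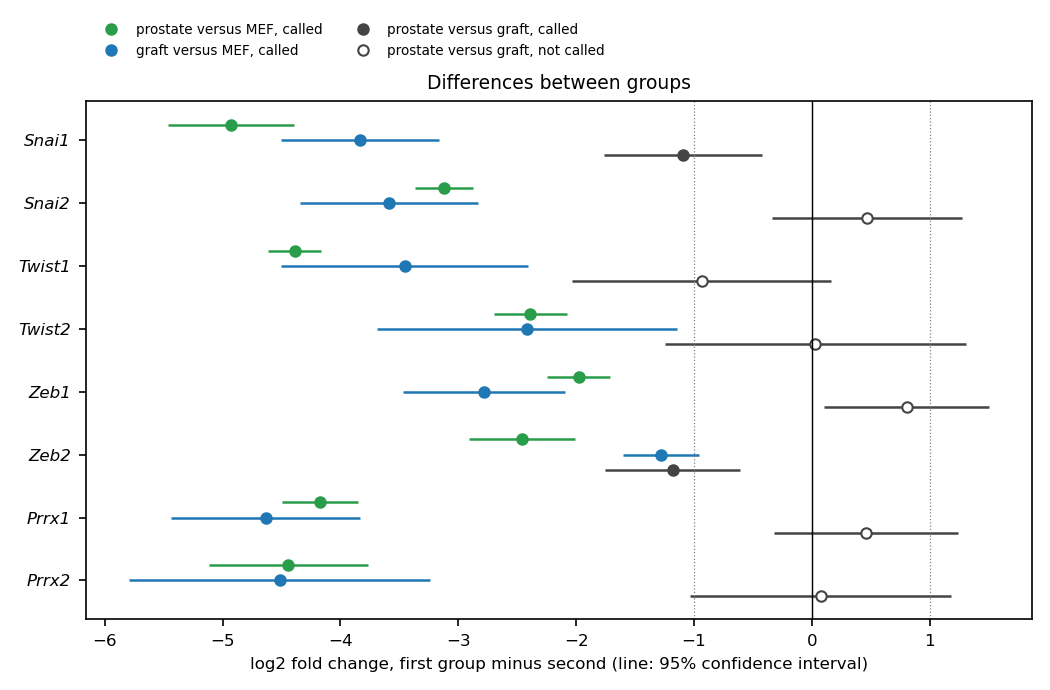
Log2 fold change of each factor in the 3 comparisons, with 95% confidence intervals from limma as lines. Filled points were called and open points were not. The points against MEF all lie below -1, and of those between prostate and graft the ones of Snai1 (-1.10) and Zeb2 (-1.18) are filled, where the call of Snai1 ends and its sign turns to 0.05 under quantile normalization.

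Read counts grow with transcript length, so levels were compared between genes as normalized reads per kilobase of exon. The length took all annotated exons of a gene together. It ran from 1.33 kb for Twist2 to 9.71 for Zeb1, 11.07 for Prrx1 and 15.37 for Zeb2. Annotated exons that a sample does not use lower the value of a gene. The orders below thus hold for these lengths only, and lengths of single transcripts were not tried. In MEF, Prrx1 led with 992 ± 231 (SD, n = 6), followed by Snai1 at 766 ± 268, Prrx2 at 761 ± 338, Snai2 at 636 ± 36.7, Twist1 at 575 ± 23.5 and Twist2 at 473 ± 87.4. The ranges of each neighbouring pair among these overlapped, so their order is not fixed. Zeb1 came next at 272 ± 39.4, with its highest value (329) just above the lowest of Prrx2 (326) and below every value of the other 5, and Zeb2 at 125 ± 10.4 lay below Zeb1 without overlap. In prostate the order was another one, with Twist2 (89.3 ± 16.5), Snai2 (73.4 ± 13.49), Zeb1 (69.3 ± 11.9) and Prrx1 (54.3 ± 8.94) on top, and Prrx2 (30.7 ± 4.35), Twist1 (26.8 ± 4.02), Zeb2 (23.9 ± 8.16) and Snai1 (23.5 ± 5.94) below them. The lowest value of the upper 4 in prostate was 41.2 and the highest of the lower 4 was 34.7. At these lengths the 2 sets did not overlap, while neighbours within each set did. By mean, Snai1 thus went from the second place per length in MEF to the last in prostate, in sets whose neighbours overlapped. In the grafts the means lay between 39.1 (Prrx2) and 134 (Twist2, SD 133), and all neighbours in the order overlapped.

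Between prostate and grafts, 2 of the 8 members were called lower in prostate, Snai1 and Zeb2, and 6 were not called. Over all 16353 genes tested, 23.0% were called lower and 10.3% higher in prostate, so the share among the members is near the background. The log2 fold change of Zeb2 was -1.18 (SE 0.26, 95% confidence interval -1.76 to -0.61, limma, adjusted p = 0.00275), and Zeb2 was the 1 member whose groups did not overlap. That of Snai1 was -1.10 (SE 0.31, interval -1.77 to -0.42, limma, adjusted p = 0.0101), a call that ended with a value of 0.05 under quantile normalization. Leaving out FS002, FS003 or the prostate sample FS011 brought Snai1 to -0.95, -0.98 and -0.97, and leaving out the prostate sample FS009 brought Zeb2 to -0.9998, each just short of the minimum fold change.

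The other 6 differences were not resolved. Zeb1 was higher in prostate by 0.80 (interval 0.10 to 1.503, limma, adjusted p = 0.05003), just past the threshold and under the minimum fold change. For Twist1 the difference was -0.93 (interval -2.03 to 0.17), for Snai2 0.47 (-0.34 to 1.28) and for Prrx1 0.46 (-0.32 to 1.24). Those of Twist2, 0.03 (-1.25 to 1.304), and Prrx2, 0.07 (-1.03 to 1.18), were centred near 0, yet their intervals still allow a log2 difference of 1 in either direction. Under quantile normalization Snai2 (1.42) and Prrx2 (1.21) were called higher in prostate, so which members differ between the tissues depends on the scaling.

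Other cell types also differed between grafts and prostate. All 6 leukocyte markers tested of 8 were called lower in prostate, with sums of 3976 to 7590 normalized reads in grafts and 942 to 2559 in prostate, and Ptprc, Csf1r and the rest of this list were above 3 reads in every graft of the first table. All 8 kidney markers were called lower in prostate, with 1301 to 173883 in grafts and 4.78 to 107 in prostate. Of 8 markers each, 4 of nerve and glia, 4 of skeletal muscle and 3 of endothelium were called lower in prostate and none higher. The sums of nerve and glia markers were 944 to 16597 in grafts and 1411 to 1719 in prostate, those of skeletal muscle 1171 to 79644 and 5427 to 9786, and those of endothelium 1701 to 5373 and 1592 to 2159. Of 8 smooth muscle markers, 7 were called higher in prostate, with 6104 to 29479 in grafts and 104898 to 169074 in prostate. Of 8 fibroblast markers 1 was called, higher in prostate, with 14835 to 86785 in grafts and 23692 to 63287 in prostate. The part of these tissues in the levels of the factors was not tested.

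The 5 grafts of the first table parted in the same way for most members. FS007 and FS008 were below the other 3 for 7 of the 8 members and above them for Twist2. Without these grafts, an alternative chosen after the values had been seen, 4 members were called between prostate and graft. Snai1 at -1.50, Twist1 at -1.80 and Zeb2 at -1.41 were lower in prostate and Twist2 at 1.04 was higher. Many genes were called in that setting, 4752 lower and 1785 higher of 16296 tested, so the count of members does not set them apart. Some marker sums set FS007 and FS008 apart too. Skeletal muscle markers came to 4704 and 1171 normalized reads in FS007 and FS008 against 45395 to 79644 in the other 3, and nerve and glia markers to 1909 and 944 against 7634 to 16597. Fibroblast markers stood at 60610 and 86785 in FS002 and FS003, at 21043 and 21506 in FS005 and FS007 and at 14835 in FS008. Smooth muscle markers were lower too, at 14780 and 6104 against 16419 to 29479, and secretory markers of prostate were higher, at 13662 and 11041 against 3775 to 6820. Epithelial markers did not split this way, at 67225 in FS007, 24967 in FS008 and 45511 to 67297 in the others. Nor did leukocyte markers, at 6513 and 3984 against 3976 to 7590, or endothelial markers, at 1701 and 3556 against 3018 to 5373. Kidney markers did not either, at 7265 and 165259 against 1301 to 173883. Whether these tissues bear on the factors was not tested.

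**Figure D3:**
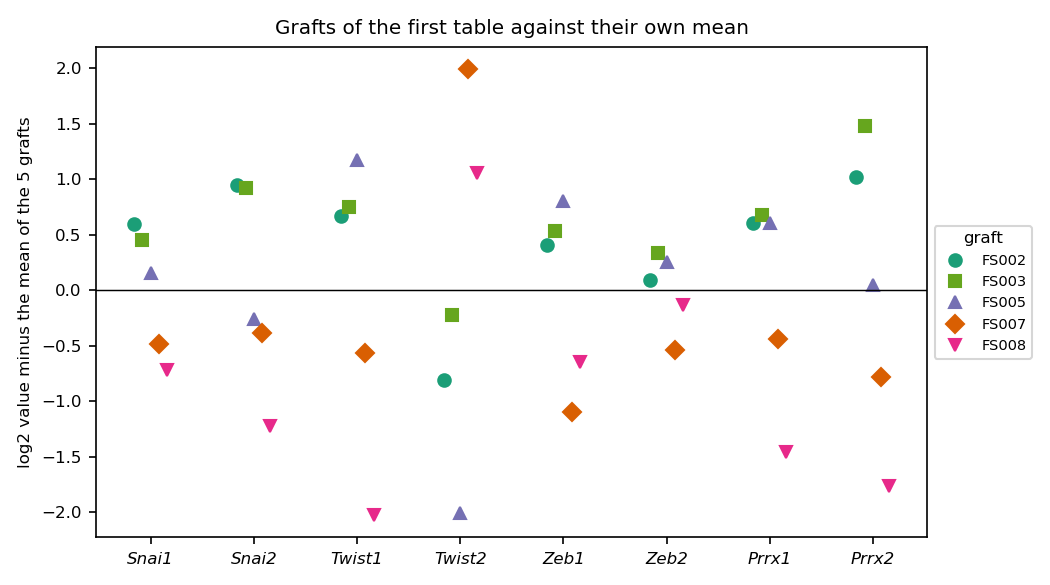
Log2 value of each factor in the 5 grafts of the first table minus the mean of these grafts, 1 symbol a graft. FS007 and FS008 lie below the other 3 for 7 genes and above them for Twist2, whose SD of 1.57 is the widest.

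The grafts FS022 and FS023 of the second table were set beside the rest without a test, because their values were scaled apart. Zeb2 stood at 11.36 and 11.37, above the highest MEF value of 11.03, and at a within-sample percentile of 94.9 and 94.7 where the MEF had 89.2 to 91.6 and the other grafts 71.5 to 83.3. Zeb1 stood at 10.99 and 10.73, below the MEF range and above every graft and prostate sample of the first table, at percentiles of 92.3 and 89.8. The Zeb genes of both these grafts were thus ranked at or near fibroblast level within their own sample.

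The other 6 members in FS022 and FS023 did not follow the Zeb genes. Snai1 stood at 7.31 and 3.94, Snai2 at 8.63 and 5.70, and Twist1 at 8.004 and 6.02. Twist2 stood at 8.08 and 4.26, Prrx1 at 10.88 and 9.46, and Prrx2 at 6.91 and 5.37. All 12 values lay below the MEF range, and all 6 members were higher in FS022 than in FS023. The value of Snai1 in FS023 rests on about 8.27 reads and that of Twist2 on 10.6. Markers differed sharply between these grafts: smooth muscle markers summed to 317198 normalized reads in FS022 and 3612 in FS023, and nerve and glia markers to 4714 and 75164. Their leukocyte sums were 6075 and 8857. The bearing of these tissues on the factors was not tested.

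The 24 other transcription factors of mesenchyme that were listed around the members moved less uniformly. In prostate 17 of 23 tested were called lower than in MEF and 4 higher, with a median log2 fold change of -2.77. In grafts 10 of 24 were called lower and 2 higher, with a median of -1.27. Tbx15, a T-box factor of limb and skin mesenchyme, went from a mean of 11.38 in MEF to 8.02 in grafts and 2.52 in prostate. Lhx9, a LIM homeobox factor of limb and gonad, went from 9.17 to 3.02 and 1.35, the last below the value of 3 reads. Foxd1, a forkhead factor of embryonic stroma, went from 7.15 in MEF to 5.49 in grafts. In prostate no sample passed the value of 3 reads for Foxd1. Tcf21, a stromal factor of several visceral organs, went the other way. It stood at 0.98 in MEF, below the value of 3 reads, at 6.10 in grafts and at 8.28 in prostate.

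Partners of the factors were called lower at shares near those of all genes, and called higher less often than all genes. Of 18 E proteins, Id proteins and corepressors, 5 were called lower and 1 higher in prostate against MEF. In grafts 3 were called lower and 1 higher. Over all genes, 20.5% and 12.0% were called lower and 27.8% and 29.9% higher in these comparisons. Those called lower included Tcf4, an E protein (log2 fold changes -1.71 and -1.34), and Wwtr1, the coactivator TAZ (-2.16 and -1.87). Id2, which sequesters E proteins, was called higher in grafts than in MEF, by 1.69, and lower in prostate than in grafts, as was the E protein gene Tcf3. Among 27 inducing ligands, receptors and mediators, 16 were called lower in prostate and 14 in grafts, and 2 and 3 higher. Hmga2, a chromatin factor that drives Snai1 and Twist1, went from 13.57 in MEF to 7.93 in grafts and 3.93 in prostate, and Tgfb3 from 12.72 to 9.51 and 8.76. Jag2, a Notch ligand, rose from 3.14 to 8.82 and 9.43. Tgfb1 and Pdgfb were lower in prostate than in grafts (log2 fold changes -1.80 and -3.02), and Tgfb2 and its co-receptor Tgfbr3 higher (1.70 and 2.04).

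The mesenchymal effectors followed the members closely. Of 25 cytoskeletal, adhesion and matrix genes, 24 were called lower in prostate and 25 in grafts, with medians of -4.24 and -4.29. Vim, the intermediate filament of fibroblasts, went from a mean of 16.34 in MEF to 12.77 in grafts and 11.33 in prostate, and was also called lower in prostate than in grafts (log2 fold change -1.44, limma, adjusted p = 0.00481). Cdh2, the N-cadherin gene, went from 11.74 to 7.38 and 3.73, with graft values spread from 3.49 to 9.83. Tnc, a matrix glycoprotein, went from 16.02 in MEF to 9.07 in grafts and 7.39 in prostate.

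The epithelial side was the reverse. Of 20 junction and polarity genes known to be repressed by the factors, 19 were called higher in prostate than in MEF and 19 in grafts than in MEF, where 27.8% and 29.9% of all genes were called higher, with medians of 8.29 and 8.01. Cdh1 ran from 2.32 to 4.59 in MEF, 12.86 to 13.92 in grafts and 12.76 to 13.17 in prostate. Epcam ran from 1.07 to 4.06, 11.03 to 13.32 and 12.84 to 13.20, and Crb3 from -1.19 to 2.48, 8.64 to 9.68 and 9.26 to 9.50. Neither Cdh1, Epcam nor Crb3 was called between prostate and graft, where 2 of the 20 genes were called higher and 2 lower. Of the 16 epithelial regulators, 12 of 15 tested were called higher in prostate and 15 of 16 in grafts. The list holds Foxa1, with a mean of 4.24 in MEF and 10.25 in grafts. A lentivirus for mouse Foxa1 was among those described, and its reads were not separated from those of the endogenous gene. Esrp1, a splicing regulator, went from 1.33 in MEF to 11.12 in grafts and 12.00 in prostate, and Grhl2 from 1.36 to 10.39 and 11.03. The MEF means of Esrp1, Grhl2 and Crb3 (0.43) lay below the value of 3 reads there (1.88 to 2.08). Their rises thus depend on this floor, and they passed the filter on low values through the tissues alone. The targets Ap1m2 (1.04) and Cldn7 (1.69) also lay below that value in MEF, so the medians of the targets depend in part on the floor. Grhl3 was high in grafts alone of the first table (7.73, beside 1.14 in MEF and 1.70 in prostate). In the second table the epithelial genes were also high, with Cdh1 between 11.07 and 12.59 and Epcam between 10.51 and 12.38, in the same grafts whose Zeb1 and Zeb2 were near the MEF level.

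**Figure D4:**
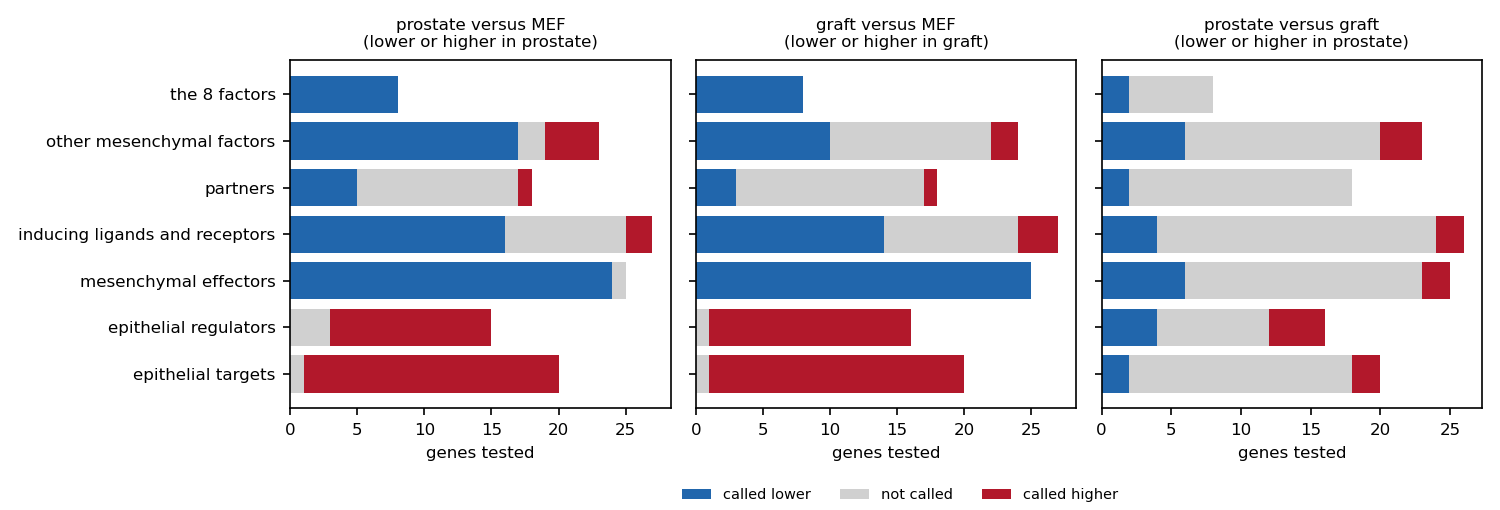
Number of genes called lower (blue), not called (grey) and called higher (red) in each list, for the 3 comparisons of the first table. The 8 factors and the 25 mesenchymal effectors are almost wholly blue against MEF, the epithelial targets are red for 19 of 20, and between prostate and graft most genes of every list but the epithelial regulators, of which 8 of 16 were called, are grey.

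The genes whose pattern was most like each member were sought by Pearson correlation over the 17 samples of the first table among 14575 genes, a description in which all points share the split between MEF and tissues. Snai1 was most like Ski (r = 0.99), Snai2 most like Nab2 (0.99) and Twist1 most like Spred1 (0.99). Zeb1 was most like Gpc6 (0.99), Zeb2 most like Clasp2 (0.98), Prrx1 most like Scoc (0.99) and Prrx2 most like Figf (0.99). Twist2 was the member least like any other gene, with Fasn at the top (0.96). It was also the member least like the other 7, with correlations from 0.58 with Zeb1 to 0.73 with Snai1, whereas Prrx1 and Snai2 reached 0.98 with each other.

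In mm9, Snai1 lies on chromosome 2 at 167363695 to 167368314, Zeb2 on chromosome 2 at 44839154 to 44972915 and Prrx2 on chromosome 2 at 30690492 to 30736761. Prrx1 lies on chromosome 1 at 165175247 to 165243841 and Twist2 on chromosome 1 at 93698038 to 93744605. Twist1 lies on chromosome 12 at 34642536 to 34644682, Snai2 on chromosome 16 at 14705945 to 14709488 and Zeb1 on chromosome 18 at 5591858 to 5775465. Close family members therefore lie on different chromosomes in all 4 families, and no pair of members shares exons.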

How the data were processed

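RNA was sequenced single-end from total RNA of 19 samples with a kit (TruSeq RNA v2) that does not mark strand. The submitters' processing notes name bcl2fastq 1.8.4, TopHat, Cufflinks, DESeq and the mm9 build, while the counter and the transformation are not given in the sources used here. The authors deposited normalized log2 values per gene, in 1 table of 17 samples and another of 2. Above a value of 11.5 each value, taken off the log scale and less 1.6107, was a whole multiple of 1 constant per sample, to within 0.05 reads, which gave the depths, the estimated and normalized reads (reads scaled to a common depth) and the value of 3 reads. Below it the values scattered around whole reads, which were therefore not recovered, and no count test was run. Read numbers cover counting error only.

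Values were tested as deposited, with no pseudocount, by limma 3.58.1 in R 4.3.3 (lmFit, eBayes with trend) on the 2 groups compared, over genes whose mean off the log scale was 10 or more, with Benjamini-Hochberg adjustment over all genes tested. The fits were tested on simulated data. The other tools were Python 3.11.15, pandas 2.3.3 and numpy 2.4.6. Groups came from the sample labels, which do not separate kinds of graft. Values of the second table entered no test. Of the 15 pairs of MEF samples, 3 had a chi-square of their reads over genes of 3.57 to 6.22 times its expectation, against 68.9 to 90.8 for the other 12, so they were kept as separate samples and averaged in an alternative. The genes named were the 8 members, up to 3 called genes of each list in each direction and comparison, Cdh1, Epcam and Vim, and the genes most like each member among 3 ranked. Crb3 was added for its sequence. The members and lists were chosen with earlier results of these data known. Alternatives changed the filter, scaling, pseudocount, groups in the fit, minimum fold and samples. Positions are from GENCODE M1 (mm9), and promoter sequences from RefSeq (GRCm38.p6).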

Additional observations from a re-analysis of the deposited data

How the results depend on the processing

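Against MEF, all 8 members stayed called under the alternatives run (8 members without any 1 sample), but for Twist2 in grafts without FS015 to FS018. Quantile normalization moved the median log2 fold change of all genes from 0.17 to -0.02 (prostate against MEF), from 0.26 to -0.20 (graft against MEF) and from -0.11 to 0.14 (prostate against graft), and the genes called higher and lower from 4044 and 2982 to 3313 and 3570, from 4815 and 1942 to 2828 and 3830, and from 1683 and 3757 to 3176 and 2455. The prostate and graft comparison was the unstable one. Leaving out 1 sample each gave 1 to 3 members called, and ranges of -0.47 to 0.53 for Twist2 and -0.37 to 0.44 for Prrx2, both uncalled throughout. Twist1 was called without FS008 (-1.44, adjusted p = 0.00294 by limma) and Zeb1 without FS005 (1.00, adjusted p = 0.0191). Under quantile normalization 3 were called, beside 5631 of all 15534 genes tested, and Snai1 stood at 0.051. Without FS007 and FS008, an alternative added after the values were seen, 4 were called, beside 6537 of all 16296 genes tested. There Snai2 stood at -0.064, Prrx1 at -0.17 and Prrx2 at -0.77. The causes were not tested. In all, 123 of 144 single-member values of this comparison kept direction and call. With no minimum fold change 11772, 10573 and 9093 genes were called in place of 7026, 6757 and 5440. Averaging the closest MEF samples, also added later, changed no call of a member. No paired analysis was possible because the labels give the samples no replicate numbers shared between groups. The depth of the second table limits Snai1 and Twist2 in FS023, at about 8.27 and 10.6 reads.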

Other observations

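Snai3, a Snail family gene outside the 8 members, did not share their direction. It was called higher in grafts than in MEF (mean log2 value 4.11 against 1.65, log2 fold change 2.45, limma, adjusted p = 0.00112), and its values ran from 0.62 to 2.63 in MEF, 3.35 to 4.81 in grafts and 2.55 to 3.78 in prostate. These are low levels, close to the value of 3 reads in MEF, and Snai3 passed the filter on low values in this comparison only through its grafts. Sox9, a factor of cartilage and of several epithelia, was called higher in prostate than in MEF (10.91 against 9.41) and than in grafts (9.62), and Mkx, a homeobox factor of tendon, was called higher in prostate than in grafts (8.81 against 6.14).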
